A study of Taeniopygia guttata with 22 samples.

Results

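Voltage-gated potassium channel genes outside the Kv3 and KCNQ families were measured in RA (robust nucleus of the arcopallium) of juvenile zebra finches of both sexes. The set has 36 listed symbols: pore-forming subunits of the KCNA, KCNB, KCND and KCNH families, the silent subunits KCNF1, KCNG, KCNS and KCNV, the auxiliary KCNAB, KCNIP and DPP proteins, and the large-conductance channels KCNMA1 and KCNT1. A gene was a member if its NCBI gene ID in the count table was that of the zebra finch gene with a listed symbol. Of the 36 symbols 33 had a row among 21786 genes with an ID, and 32 were among the 16004 genes tested. KCNA6, KCNH3 and KCNIP3 had no matching row and were not analysed here. KCNV2, a silent subunit, did not pass the filter on low counts, with 24, 11, 8 and 12 counts in all in females at 20 days, males at 20 days, females at 50 days and males at 50 days. The symbol list itself names no hyperpolarization-activated HCN gene, so HCN genes are described with the other potassium channels.

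RA is the forebrain motor output nucleus of the song system, and in this species males sing and females do not. The 4 groups are females at 20 days posthatch (5 libraries), males at 20 days (5), females at 50 days (7) and males at 50 days (5). The labels name no strain, transgene or drug for any group. RA was cut by laser from frozen sections stained with cresyl violet, and 1 ng of RNA was the input to SMART-Seq v4. Each library carries a brain number, and those of female 50-day replicates 5 and 6 share a number, so these may come from 1 bird.

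Voltage-gated potassium channels open on depolarization and bring the membrane back towards rest, which sets the width of spikes, the gap between spikes and the regularity of firing. A channel is built from pore-forming alpha subunits in a ring of 4. KCND subunits carry a fast, transient A-type current and take up cytoplasmic KCNIP proteins and the transmembrane proteins DPP6 and DPP10, which change its density and timing. KCNA subunits open near rest in axons and terminals and bind the cytoplasmic beta subunits KCNAB1 and KCNAB2. KCNB subunits carry a slow delayed rectifier in the soma and proximal dendrites. The silent subunits form no channel of their own and join KCNB subunits to change its gating. KCNH genes encode the EAG, ERG and ELK channels, KCNMA1 the calcium-activated BK channel and KCNT1 a sodium-activated channel. These roles are known mainly from mammals.

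Total counts ran from 16.17 M to 65 M (M, 1e6 counts) per library, with 13 shallow libraries at up to 22.35 M and 9 deep ones from 49.12 M. The 20-day females were sequenced only deeply (5 of 5) and the 20-day males only shallowly (0 of 5 deep), so that sex and depth cannot be told apart at 20 days. Among the 50-day libraries the deep ones were 1 of 7 from females and 3 of 5 from males. The marker SLC17A6, the vesicular glutamate transporter of projection neurons, stood at 647 ± 51.4, 662 ± 113, 537 ± 73.8 and 555 ± 67.9 CPM. These are means and SD of females and males at 20 days, then females and males at 50 days. SLC17A6 is 1 of 10 listed projection neuron markers. Of those 10, 4 were lower in males at 50 days and 0 higher, with a median log2 difference of -0.66. Levels are counts per 1e6 counts (CPM) with libraries scaled by TMM, and are not divided by gene length, so they compare libraries for 1 gene and not genes with each other. In bulk tissue fewer cells of a type and less RNA per cell cannot be told apart.

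At 50 days 19 of the 32 tested members differed between the sexes, with 16 lower and 3 higher in males. The 3 higher were KCNS1, KCNAB2 and KCNH4. The 16 lower were KCNA1, KCNA3, KCNA5, KCND2, KCNF1, KCNG1, KCNG3, KCNG4, KCNS2, KCNS3, KCNV1, KCNIP1, KCNIP2, KCNH5, KCNH7 and KCNT1. Calls are at an adjusted p under 0.05 in edgeR's quasi-likelihood test, with Benjamini-Hochberg adjustment over all genes. The share of members called was 59.4%, beside 33.1% of all genes tested. By direction, 16% of all genes were called higher in males and 17.2% lower. The median log2 difference, male over female, was -0.67 over the members and -0.03 over all genes. Library values of the sexes did not overlap for 2 members higher in males and 8 lower, where 8.42% and 7.67% of all genes were so separated. The 13 members not called had adjusted p from 0.134 to 0.849.

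**Figure D1:**
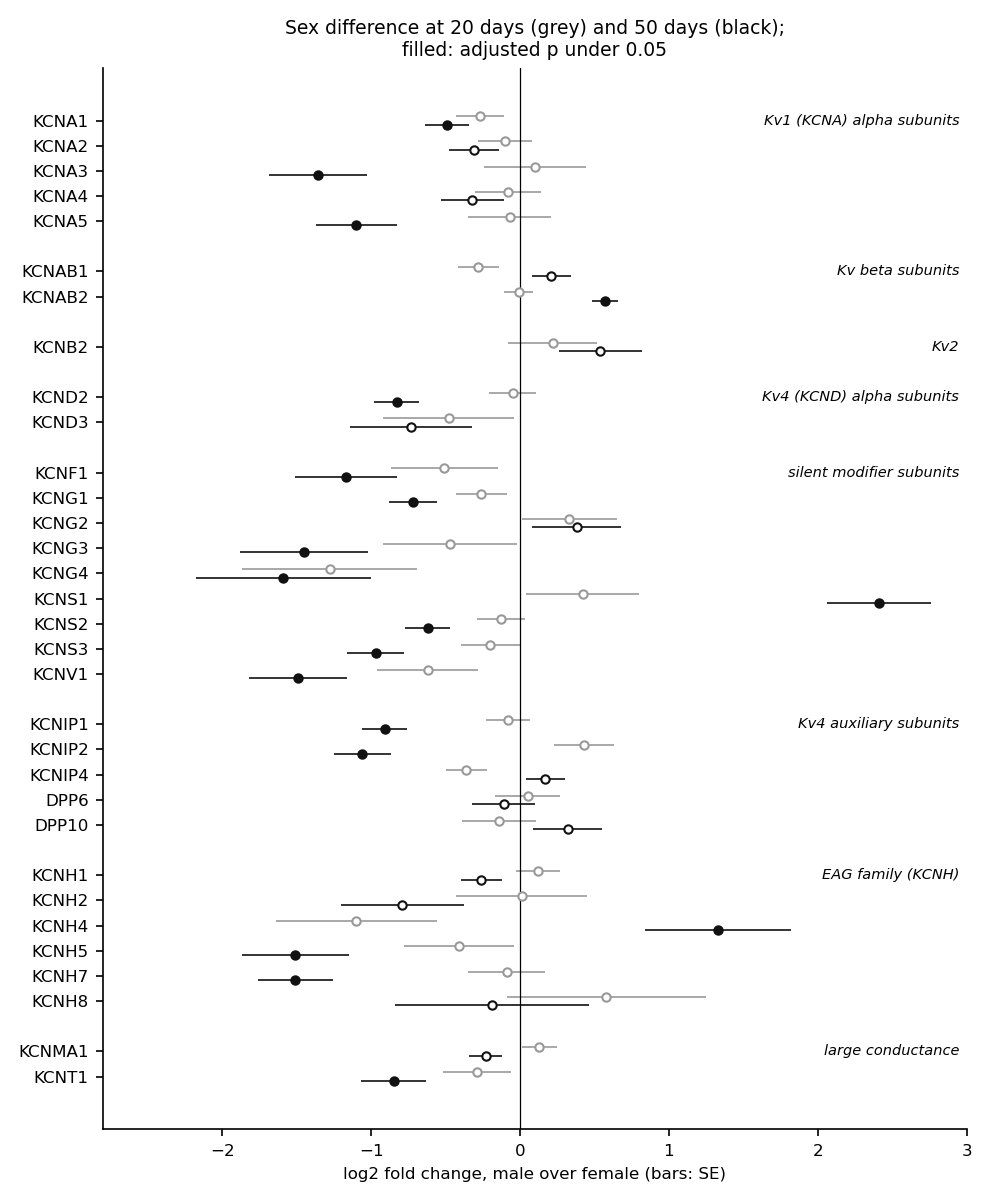
Log2 difference of males over females (horizontal axis, bars are SE) for the 32 tested members, grouped by family, at 20 days and at 50 days. At 20 days no member was called; at 50 days 16 lie below zero and 3 above it with an adjusted p under 0.05.

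The number called at 50 days was smaller in fits of 1 depth set, which also hold fewer libraries. With all libraries and depth as a model term 16 members were called (2 higher, 14 lower), beside 25.1% of all genes. With the shallow libraries alone (2 males, 6 females) 7 members were called, KCNAB2 and KCNS1 higher and KCND2, KCNS3, KCNIP1, KCNIP2 and KCNH7 lower, beside 12% of all genes, and with the deep libraries alone (3 males, 1 female) 2 were called, KCNS1 higher and KCNS2 lower, beside 5.44%.

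Markers of other cells in RA differed between the same groups. Of 18 listed markers of GABAergic interneurons 15 were lower in males at 50 days and none higher, with a median log2 difference of -0.98. Their summed level was 1131 to 1645 CPM in males and 2149 to 2744 CPM in females at 50 days, and 1725 to 1966 CPM in females and 1711 to 1917 CPM in males at 20 days. Astrocyte markers were higher in males for 5 of 9 (8774 to 10580 against 5467 to 8426 CPM summed), and endothelial and mural markers for 5 of 8 (461 to 667 against 255 to 352 CPM). Projection neuron markers were lower in males for 4 of 10 (1343 to 2220 against 1859 to 3151 CPM), and pan-neuronal markers lower for 5 and higher for 2 of 10. Summed myelin markers ran from 145 to 1414 CPM in females and 151 to 1182 CPM in males at 20 days and from 2797 to 6706 and 7155 to 12567 CPM at 50 days, and none of the 6 passed the test for sex at 50 days. No listed marker was at 0 in every library, though SP8, an interneuron factor, was at 0 in some. The part of these cell types in the channel results was not tested.

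**Figure D2:**
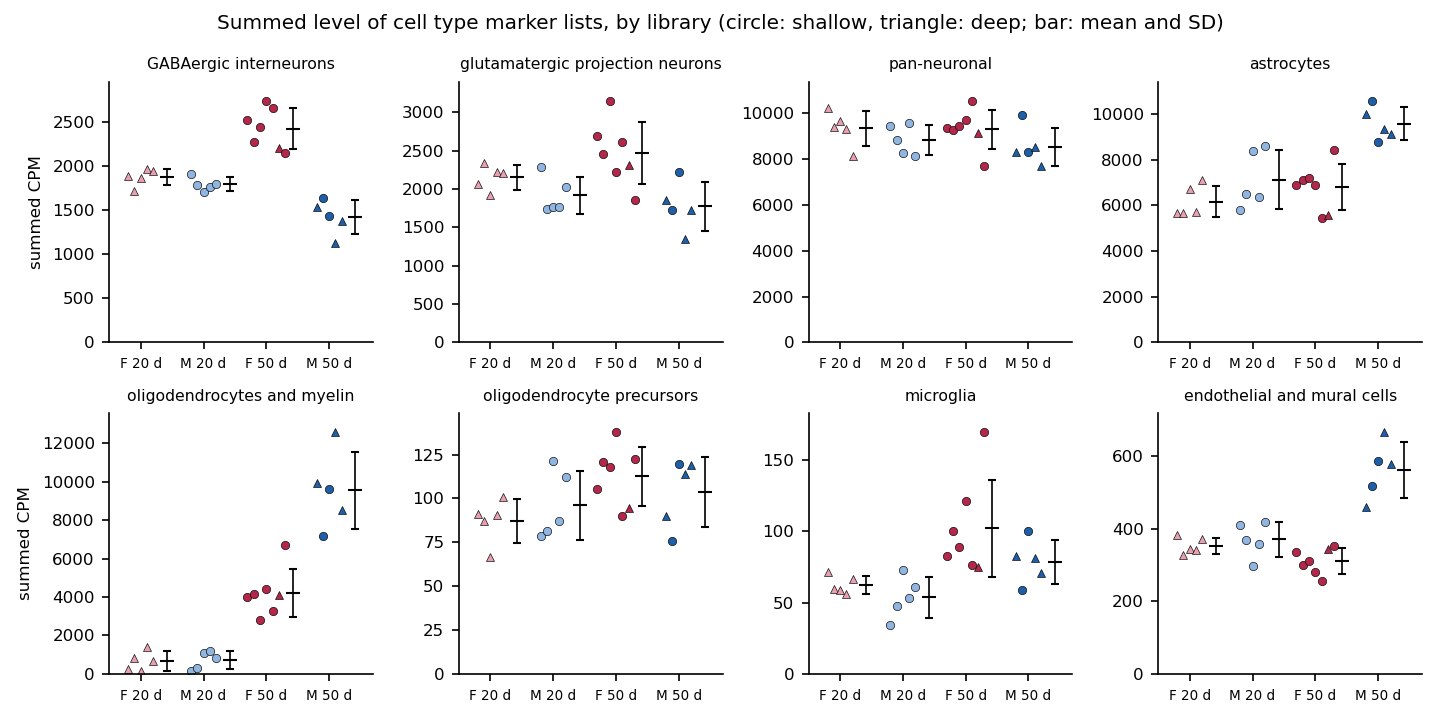
Summed CPM of cell type marker lists in each library (circles, shallow libraries; triangles, deep libraries; cross and bar, mean and SD) for females (F) and males (M) at 20 and 50 days. The GABAergic sum of the 5 male libraries at 50 days (1131 to 1645 CPM) lies below that of the 7 female libraries (2149 to 2744 CPM).

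At 20 days none of the 32 members differed between the sexes, where 2.11% of all genes did (1.92% higher in males, 0.181% lower). The smallest adjusted p was 0.333, for KCNIP4, and DESeq2 also called 0. At an unadjusted p under 0.05 there were 3 members, KCNIP4, KCNG4 and KCNIP2. The share of all genes at that level was not worked out, so this count has no background to stand beside. Sex and depth cannot be told apart at this age. The median log2 difference was -0.10, and 22 of 32 members lay below zero, where the median over all genes was -0.01 and 51.6% lay below zero. None of the members had library values that separated the sexes, against 3.61% of all genes (2.6% higher, 1.01% lower). KCNS1, for example, had a log2 difference of 0.42 (SE 0.38) and KCNIP2 one of 0.43 (SE 0.20).

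KCNS1 (gene 100228625), a silent subunit, had the highest fold difference of the members called higher in males at 50 days. Its level was 179, 204, 140, 263 and 170 CPM in the males (replicates 1 to 5) and 87.8, 39.5, 43.2, 22.8, 23.7, 23.1 and 11.5 CPM in the females (replicates 1 to 7). At 20 days it was 35, 25.7, 48.5, 30.2 and 52.9 CPM in females and 82.8, 32.6, 51.1, 61.1 and 30.3 CPM in males. Every male library at 50 days lay above every library of the other 3 groups, while those 3 groups overlapped each other. At 50 days the difference was 5.33-fold (log2 2.41, SE 0.35, adjusted p 1.53e-05).

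Most other silent subunits were at a lower level in 50-day males: 7 of the 9 tested were lower, beside 17.2% of all genes. KCNS1 was higher, and KCNG2 was not called (log2 0.38, SE 0.30). KCNS3 (gene 100221099) stood at 2.39, 3.64, 2.26, 2.70 and 4.12 CPM in males and 5.05, 6.33, 5.10, 7.35, 5.99, 6.08 and 5.58 CPM in females, so all 5 males were below all 7 females. The KCNS3 difference was 1.96-fold (log2 -0.97, SE 0.19, adjusted p 0.000355). KCNV1 (gene 100229740) stood at 0.692, 1.01, 0.806, 0.403 and 0.789 CPM in males and 1.63, 2.61, 1.07, 2.24, 2.76, 2.33 and 1.72 CPM in females. Those ranges of KCNV1 came close, at 1.01 and 1.07 CPM, without overlap, and the difference was 2.81-fold (log2 -1.49, SE 0.33, adjusted p 0.00136). KCNG1 (gene 115497947), which is expressed with KCNB subunits, stood at 144, 173, 154, 102 and 156 CPM in males and 265, 201, 252, 236, 271, 259 and 191 CPM in females. The sexes again did not overlap, and KCNG1 was 1.64-fold lower in males (log2 -0.72, SE 0.16, adjusted p 0.00164). In the shallow libraries alone KCNV1 (log2 -1.13, adjusted p 0.155) and KCNG1 (log2 -0.52, adjusted p 0.134) were not called. With depth as a model term both were called (adjusted p 0.00625 and 0.00927). KCNV1 rested on 140 counts over the 5 male libraries at 50 days.

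KCNS2 (gene 100225990) was lower in males but overlapped. Males at 50 days stood at 97.4, 176, 91.7, 121 and 115 CPM and females at 215, 148, 155, 189, 238, 209 and 143 CPM. Male replicate 2, at 176 CPM, lay above 3 of the female libraries, and the difference was 1.54-fold (log2 -0.62, SE 0.15, adjusted p 0.00231). KCNF1 (13.4 to 30.1 CPM in females, 5.24 to 14.7 CPM in males; log2 -1.17, SE 0.34, adjusted p 0.0112) and KCNG4 (log2 -1.59, SE 0.59, adjusted p 0.0416) also overlapped. The KCNF1 difference was not called in the shallow libraries alone (log2 -0.60, adjusted p 0.296) or in the deep ones alone (log2 -1.84, adjusted p 0.147). KCNG3 did not overlap (4.55 to 13.6 CPM in females, 0.487 to 4.44 CPM in males), with a log2 difference of -1.45 (SE 0.43, adjusted p 0.0124). The KCNG3 difference was not called in the shallow libraries alone (log2 -1.08, adjusted p 0.168). It was called with depth as a model term (adjusted p 0.0453). KCNG4 rested on 29 counts over the 5 male libraries at 50 days and 79 over the 7 female ones, and its call was lost in 10 of 22 fits that left out 1 library (adjusted p up to 0.112) and with depth as a model term (log2 -0.92).

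Of the genes of A-type KCND channels, 1 of 2 alpha subunits and 2 of 5 auxiliary subunits were called lower in males at 50 days. Over all genes 17.2% were called lower. With 2 and 5 genes these counts are too small to set either family apart from that share. These are RNA levels of single genes, and the channel complex was not measured. KCND2 (gene 100232741) stood at 9.81, 7.90, 10.7, 7.33 and 10.6 CPM in males and 18.6, 15.2, 21, 15.1, 16.2, 14.2 and 15.2 CPM in females. All males lay below all females, and KCND2 was 1.78-fold lower in males (log2 -0.83, SE 0.15, adjusted p 0.000153). KCNIP1 (gene 100221606), a calcium-binding partner of KCND channels, stood at 18.8, 22.1, 17.5, 17.5 and 17.4 CPM in males and 29.3, 44.4, 34.4, 44.6, 30.4, 26.5 and 36.3 CPM in females. Its ranges did not overlap either, and the difference was 1.88-fold (log2 -0.91, SE 0.15, adjusted p 5.05e-05).

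KCNIP2 (gene 100231429), another calcium-binding partner, stood at 66.6, 74.7, 57.8, 81.7 and 67.9 CPM in males at 50 days and 214, 167, 157, 140, 108, 113 and 123 CPM in females. The highest male library stayed below the lowest female library, and KCNIP2 was 2.09-fold lower in males (log2 -1.06, SE 0.19, adjusted p 0.000144). The remaining partners were not called: KCNIP4 at 52.0 ± 8.53 CPM in females and 58.4 ± 11.8 CPM in males, DPP6 at 267 ± 62.8 and 247 ± 68.5 CPM, and DPP10 at 186 ± 55.8 and 233 ± 32.6 CPM. KCND3, the other A-type alpha subunit, stood at 10.9 ± 4.68 CPM in females and 6.57 ± 3.38 CPM in males and was not called. In the deep libraries alone the differences of KCNIP1 and KCNIP2 were smaller and not called, with log2 values of -0.56 and -0.65.

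**Figure D3:**
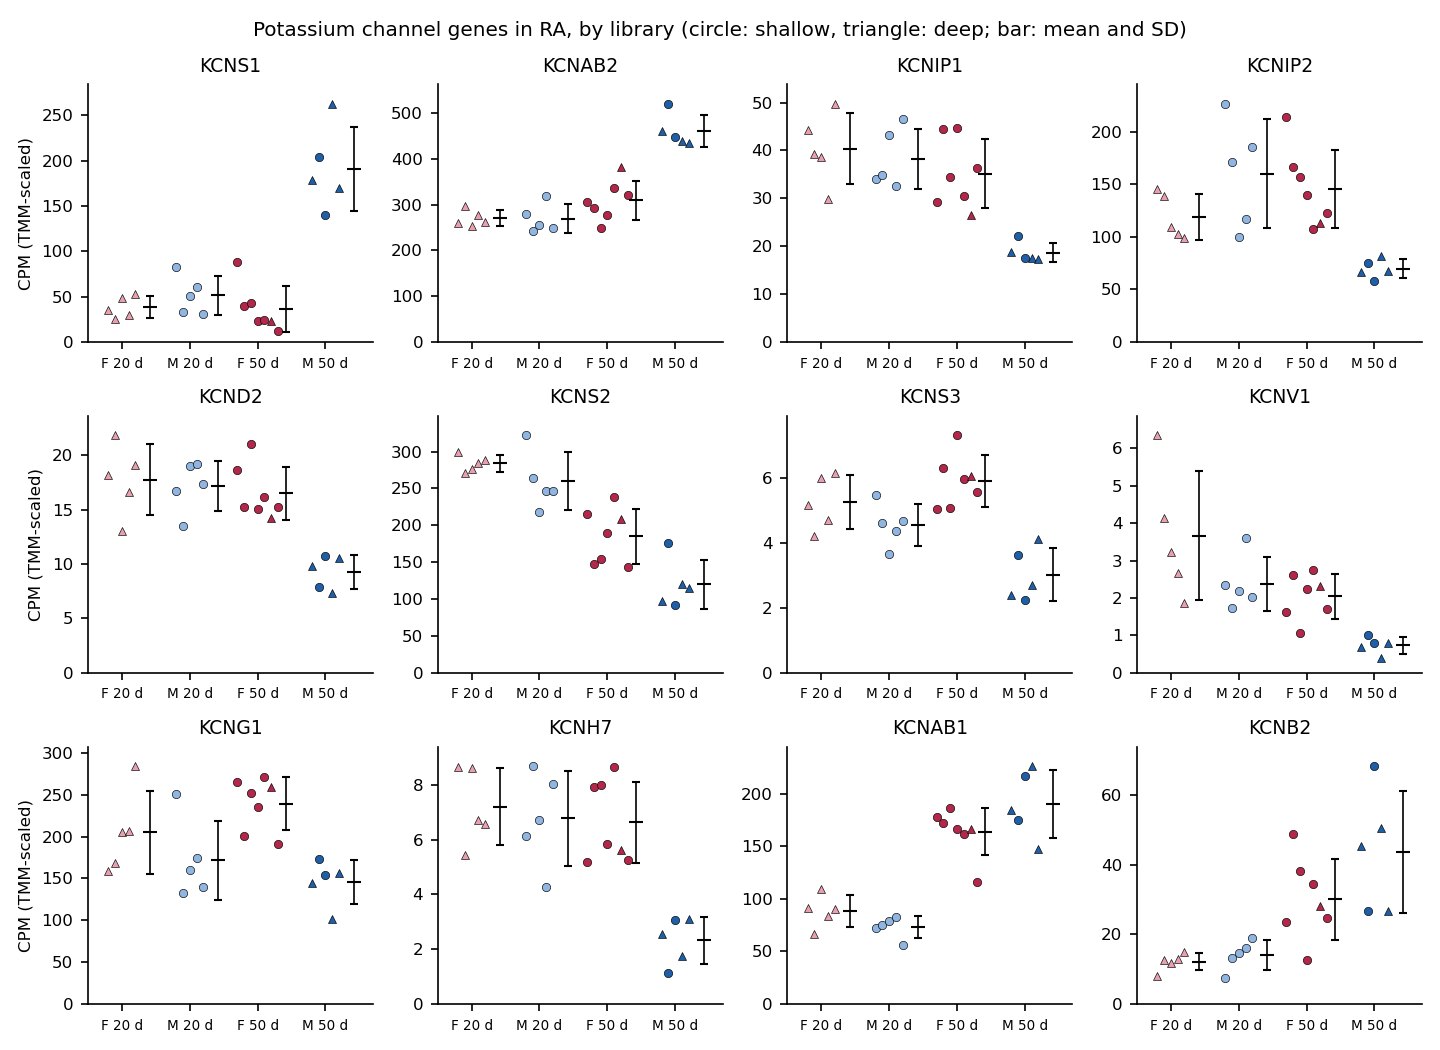
CPM of 12 members in each library (circles, shallow libraries; triangles, deep libraries; cross and bar, mean and SD) for females (F) and males (M) at 20 and 50 days. KCNS1 and KCNAB2 are high in males at 50 days, KCND2, KCNIP1, KCNIP2, KCNS3, KCNV1, KCNG1 and KCNH7 are low there without overlap with females of that age, and KCNAB1 and KCNB2 are high at 50 days in both sexes.

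Among KCNA channels and their beta subunits 3 of the 5 alpha subunits were lower in males at 50 days. The beta subunits were higher for 1 of 2. Of all genes 17.2% were called lower and 16% higher. With 5 and 2 genes these counts are too small to set either family apart from those shares. KCNAB2 (gene 100229217), which carries alpha subunits to the membrane, stood at 461, 521, 448, 439 and 434 CPM in males at 50 days and 305, 293, 250, 277, 337, 383 and 322 CPM in females. At 20 days it stood at 260, 297, 254, 278 and 263 CPM in females and 280, 242, 256, 320 and 248 CPM in males. Every male at 50 days was above every other library, and KCNAB2 was 1.49-fold higher than in females of that age (log2 0.57, SE 0.09, adjusted p 3.61e-05). In the deep libraries alone its log2 difference was 0.22 and was not called.

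KCNA3, a subunit also known from lymphocytes, ranged from 1.81 to 9.28 CPM (median 3.31) in males at 50 days and from 8.55 to 17.9 CPM (median 11.2) in females, with overlap between the sexes. It was 2.57-fold lower in males (log2 -1.36, SE 0.33, adjusted p 0.00239). KCNA5, a delayed rectifier, ranged from 2.54 to 7.41 CPM against 6.92 to 13.9 CPM and was 2.14-fold lower (log2 -1.10, SE 0.27, adjusted p 0.00305), but with shallow libraries alone its log2 difference was -0.52 and not called. KCNA1, which opens near rest in axons, ranged from 131 to 183 CPM against 153 to 295 CPM (log2 -0.49, SE 0.15, adjusted p 0.0134), a call that was lost with the depth set as a term at a similar size (log2 -0.44, adjusted p 0.0625). KCNA2, its usual partner, and KCNA4, which inactivates fast, were not called, at 200 ± 49.7 and 18 ± 5.53 CPM in males and 248 ± 71.4 and 22.4 ± 5.13 CPM in females. The beta subunit KCNAB1, which blocks open KCNA channels from inside, was not called either (190 ± 32 CPM in males, 164 ± 22.9 CPM in females).

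Of 6 KCNH channels tested, 2 were lower in males at 50 days and 1 was higher, beside 17.2% and 16% of all genes. With 6 genes this count is too small to set the family apart from that share. KCNH7 (gene 100223711), an ERG channel, stood at 2.54, 1.12, 3.06, 1.76 and 3.12 CPM in males and 5.17, 7.91, 8.01, 5.84, 8.65, 5.62 and 5.25 CPM in females. The males lay below all females, and the difference was 2.84-fold (log2 -1.51, SE 0.25, adjusted p 6.77e-05). KCNH5, an EAG channel, ranged from 2.14 to 8.32 CPM in males and from 7.59 to 16.4 CPM in females, overlapping, with a 2.85-fold difference (log2 -1.51, SE 0.36, adjusted p 0.00255). In the shallow libraries alone the KCNH5 difference was smaller and not called (log2 -0.86, adjusted p 0.188).

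KCNH4 (gene 100231338), an ELK channel, was low in every group. It stood at 2.06, 1.06, 1.56, 1.53 and 1.27 CPM in males at 50 days and at 0.449, 0.225, 0.663, 0.0973, 1.75, 0.406 and 0.604 CPM in females, where replicate 5 overlapped the males. At 20 days females stood at 1.04, 1.42, 0.948, 1.03 and 2.00 CPM and males at 0.375, 0.187, 1.07, 0.774 and 0.566 CPM. Its 2.52-fold difference at 50 days (log2 1.33, SE 0.49, adjusted p 0.0388) was lost in 10 of 22 fits that left out 1 library (adjusted p up to 0.0932) and with depth as a model term, where the size was similar (log2 1.36, adjusted p 0.105). KCNH1, KCNH2 and KCNH8 were not called at 50 days.

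The sodium-activated channel KCNT1 ranged from 52.1 to 79.1 CPM in males at 50 days and from 78.3 to 208 CPM in females, and was 1.80-fold lower in males (log2 -0.85, SE 0.22, adjusted p 0.00419). The ranges overlapped narrowly, between 78.3 and 79.1 CPM. KCNMA1, the BK channel, stood at 81.1 ± 9.71 CPM in males and 94.9 ± 16.3 CPM in females and was not called. The delayed rectifier KCNB2 was not called (43.6 ± 17.6 CPM in males, 30 ± 11.7 CPM in females).

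In males 18 of the 32 members changed from 20 to 50 days, with 6 higher and 12 lower at 50 days, beside 26.7% of all genes (12.5% higher, 14.2% lower). The members' share was 56.2%, and their median log2 change was -0.47 against -0.01 over all genes. This comparison and the one between the sexes at 50 days share the male 50-day libraries, so they are not separate evidence. The ages did not overlap for 4 members higher at 50 days and 7 lower, where 8.41% and 9.73% of all genes were so separated (18.1% in either direction). With the shallow libraries alone (2 at 50 days, 5 at 20 days) 11 members were called, beside 9.45% of all genes. The calls of KCNA3, KCNA4, KCNA5, KCNS3, KCNV1, KCNH5 and KCNT1 were lost in that fit, with log2 changes of -0.34 for KCNA4 and -0.48 for KCNA5. Those of KCNA4, KCNA5, KCNS3 and KCNT1 were also lost with the depth set as a model term, where KCNA5 had a log2 change of -0.67 (adjusted p 0.0798).

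KCNAB1 (gene 100221721) rose in males. It stood at 72.2, 74.8, 78.9, 83.2 and 55.8 CPM at 20 days and 185, 175, 217, 227 and 148 CPM at 50 days, with no overlap, a 2.61-fold rise (log2 1.38, SE 0.14, adjusted p 2.7e-07). KCNB2 (gene 100224055) stood at 7.59, 13.3, 14.5, 16.2 and 19 CPM at 20 days and 45.4, 26.8, 68.5, 50.6 and 26.8 CPM at 50 days. Each male at 50 days was above each male at 20 days, and KCNB2 rose 3.09-fold (log2 1.63, SE 0.31, adjusted p 0.000391). KCNAB2 rose 1.71-fold (log2 0.78, SE 0.099, adjusted p 4.19e-06) and KCNS1 3.7-fold (log2 1.89, SE 0.39, adjusted p 0.000878), from the values given above. KCNIP4 rose 1.60-fold (36.4 ± 4.92 to 58.4 ± 11.8 CPM, adjusted p 0.000912) and KCNA2 1.45-fold (138 ± 15.5 to 200 ± 49.7 CPM, adjusted p 0.0337).

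The silent subunit KCNS2 fell in males from 323, 264, 218, 247 and 247 CPM at 20 days to the values given for 50 days, 2.16-fold (log2 -1.11, SE 0.16, adjusted p 1.72e-05), with no overlap between the ages. KCNIP1 fell 2.05-fold from 34.1, 34.9, 43.2, 32.5 and 46.6 CPM (log2 -1.04, SE 0.16, adjusted p 3.38e-05), and KCNIP2 2.30-fold from 227, 171, 100, 117 and 186 CPM (log2 -1.20, SE 0.20, adjusted p 0.000104). In both KCNIP genes every male library at 20 days lay above every one at 50 days. KCND2 fell 1.85-fold from 17.2 ± 2.30 CPM (log2 -0.89, SE 0.16, adjusted p 0.000201). The other alpha subunit, KCND3, was not called (log2 -0.59, SE 0.44). Of the other partners KCNIP4 rose, as given above. DPP6 (log2 0.09, SE 0.22) and DPP10 (log2 0.58, SE 0.25) were not called. Among the called members the largest fitted falls were those of KCNV1 (3.26-fold from 2.38 ± 0.720 CPM, adjusted p 0.000874), KCNH5 (2.93-fold from 12.4 ± 4.73 CPM, adjusted p 0.00404) and KCNH7 (2.91-fold from 6.78 ± 1.73 CPM, adjusted p 0.000134). In the shallow libraries alone KCNV1 (log2 -1.37, adjusted p 0.104) and KCNH5 (log2 -0.86, adjusted p 0.221) were not called, against log2 changes of -1.71 and -1.55 in all libraries. KCNA3, KCNA5, KCNT1, KCNA4 and KCNS3 fell 2.42-, 2.19-, 1.68-, 1.57- and 1.51-fold, with adjusted p of 0.00763, 0.00494, 0.0195, 0.0335 and 0.0302. GABAergic markers fell in males for 8 of 18 and rose for none, and myelin markers rose for 5 of 6; their part in these changes was not tested.

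In females 6 members changed with age, 5 higher and 1 lower at 50 days. Their share of 18.8% stands beside 14.9% of all genes (6.8% higher, 8.05% lower), and the median log2 change was 0.14 against 0.01 over all genes. The ages did not overlap for 2 members higher at 50 days and 1 lower, where 3.12% and 4.34% of all genes were so separated (7.46% in either direction). KCNAB1 stood at 91.6, 67.0, 109, 83.6 and 90.7 CPM at 20 days and at 178, 172, 187, 167, 162, 167 and 116 CPM at 50 days. The ages did not overlap, although replicate 7 at 50 days, at 116 CPM, came near the highest library at 20 days. KCNAB1 rose 1.86-fold (log2 0.89, SE 0.13, adjusted p 9.87e-05).

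KCNH1 (gene 100222970), the founding EAG channel, stood in females at 25.7, 20.7, 22.5, 29.3 and 27.7 CPM at 20 days and at 42, 36.3, 47.3, 30.6, 43.2, 44.2 and 33.6 CPM at 50 days. It rose 1.57-fold without overlap (log2 0.65, SE 0.14, adjusted p 0.00277). KCNB2 stood at 8.16, 12.6, 11.9, 13 and 14.8 CPM at 20 days and at 23.4, 48.8, 38.2, 12.7, 34.6, 28 and 24.6 CPM at 50 days. Replicate 4 at 50 days, at 12.7 CPM, fell within the 20-day range, and KCNB2 rose 2.48-fold (log2 1.31, SE 0.29, adjusted p 0.00365). KCNA2 rose 1.67-fold (148 ± 18.9 to 248 ± 71.4 CPM, adjusted p 0.00523) and KCNMA1 1.29-fold (73.6 ± 8.96 to 94.9 ± 16.3 CPM, adjusted p 0.0334).

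KCNS2 was the member that fell in females, from 299, 271, 276, 284 and 289 CPM at 20 days to the 50-day values given above, 1.53-fold (log2 -0.62, SE 0.14, adjusted p 0.0057) without overlap. GABAergic markers rose in females for 9 of 18 and fell for none, and myelin markers rose for 5 of 6; their part was not tested. All 20-day females were deep and 6 of 7 50-day females shallow, and with depth as a model term 2 members were called in females, KCNAB1 and KCNH1, beside 4.65% of all genes. In that fit KCNS2 and KCNB2 kept similar sizes (log2 -0.67 and 1.16, adjusted p 0.0662 and 0.0941). KCNA2 and KCNMA1 were smaller (log2 0.51 and 0.30, adjusted p 0.212 and 0.321, against log2 0.74 and 0.37 without the term). With the deep libraries alone (1 at 50 days) 0 were called, beside 0.114%, with log2 changes of 0.91 for KCNAB1 and 0.80 for KCNH1.

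**Figure D4:**
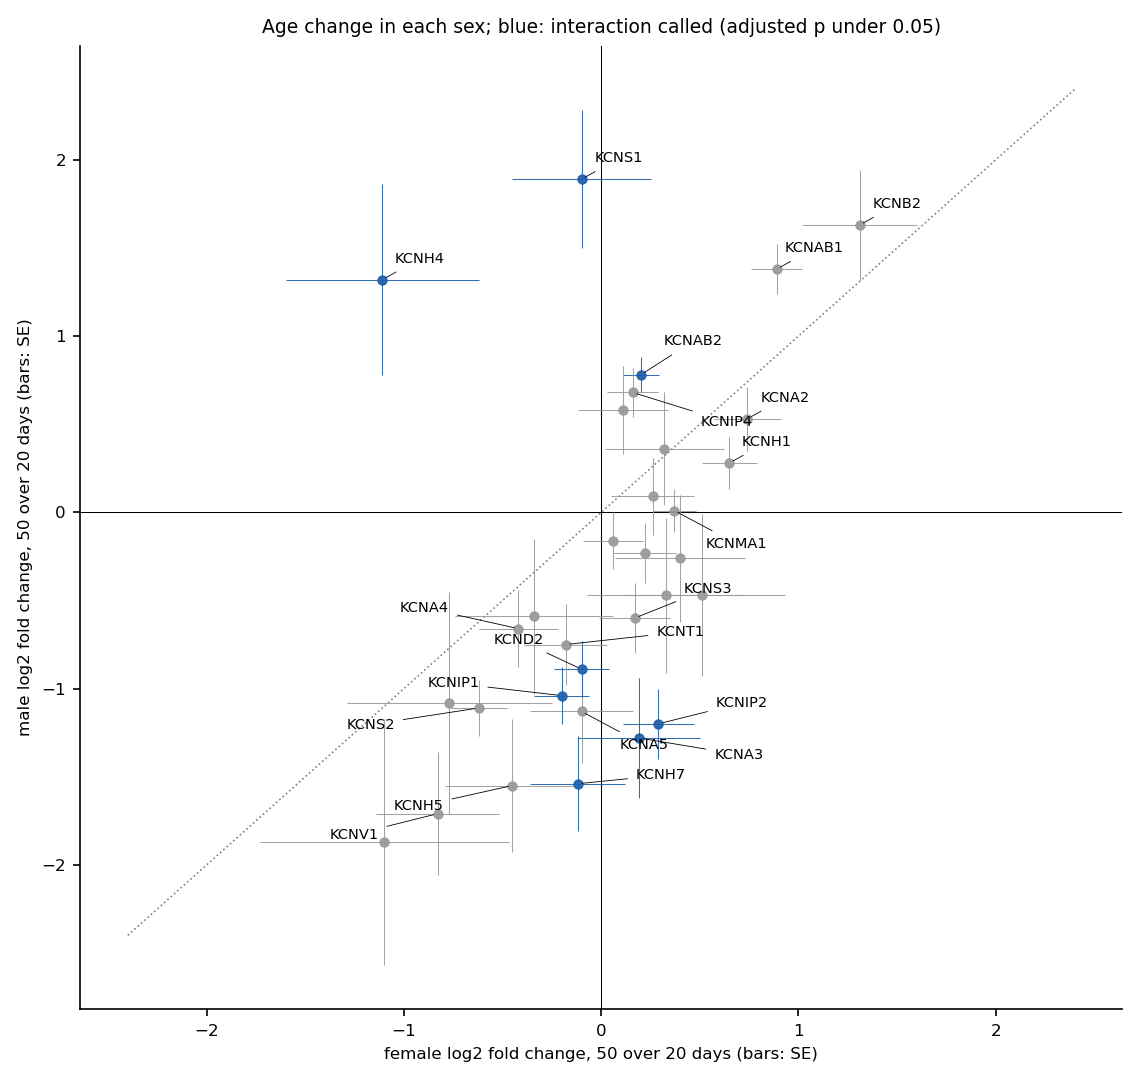
Log2 change from 20 to 50 days in females (horizontal axis) and in males (vertical axis) for the 32 tested members, with SE bars, the dotted line marking equal change and blue the 8 members whose interaction was called. KCNAB1, KCNB2 and KCNA2 lie high in both sexes and KCNS2 low in both, while KCNS1 and KCNAB2 lie above the line and KCNIP2, KCNH7, KCNIP1, KCND2 and KCNA3 below it.

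Of the 18 members called in males and the 6 called in females, 4 were called in both. The share of all genes called in both sexes was not worked out, so this count has no background to stand beside. KCNA2, KCNAB1 and KCNB2 rose in both and KCNS2 fell in both. Of these, only KCNAB1 kept its female call with depth as a model term. The difference between the age changes, male minus female, was tested as an interaction, and 8 members passed, beside 12.3% of all genes (5.75% higher, 6.57% lower). The interaction takes in the sex difference at 20 days, where sex and depth cannot be told apart. KCNAB2 (log2 0.58, SE 0.13, adjusted p 0.0066), KCNS1 (1.99, SE 0.52, 0.0141) and KCNH4 (2.43, SE 0.73, 0.0309) had the higher change in males. For KCNH4 the log2 sex difference at 20 days was -1.1 (SE 0.54, not called). KCNIP2 (-1.49, SE 0.27, 0.00107), KCNH7 (-1.42, SE 0.35, 0.0114), KCNIP1 (-0.84, SE 0.21, 0.0126), KCND2 (-0.79, SE 0.22, 0.0191) and KCNA3 (-1.47, SE 0.46, 0.0408) had the lower change in males. KCNH7 stood at 8.65, 5.43, 8.63, 6.72 and 6.56 CPM in females at 20 days and 6.13, 8.71, 6.72, 4.28 and 8.04 CPM in males at 20 days, so the males at 50 days, at most 3.12 CPM, lay below all other libraries. KCNIP2 in females at 20 days stood at 146, 139, 109, 103 and 99.0 CPM, also above every male library at 50 days. With depth set as a model term 0 members passed, beside 0.45% of all genes: the sign of each of the 8 was kept, with log2 values such as -1.34 for KCNIP2, -1.45 for KCNH7, 2.18 for KCNS1 and -0.42 for KCNIP1, and adjusted p from 0.207 to 0.648.

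Of 57 other potassium and HCN channel genes 46 were in the table and 39 tested. At 50 days 22 of these differed between the sexes (56.4%), with 6 higher and 16 lower in males and a median log2 difference of -0.42. Over all genes at that age 33.1% were called (16% higher, 17.2% lower), with a median of -0.03. KCNJ10, an inward rectifier known from astrocytes and oligodendrocytes, stood at 36.9, 44.2, 38.1, 48.6 and 43.9 CPM in males and 8.54, 7.77, 13.3, 10.1, 10.8, 9.18 and 9.20 CPM in females. It was 4.30-fold higher in males without overlap (log2 2.11, SE 0.16, adjusted p 1.32e-09). Astrocyte and myelin marker sums of these groups are given above, and their part in the KCNJ10 difference was not tested. KCNK1, a leak channel, stood at 100.0, 129, 138, 122 and 143 CPM in males and 71.4, 60.3, 56.0, 77.5, 64.2, 70.3 and 70.8 CPM in females, 1.88-fold higher without overlap (adjusted p 4.85e-06). KCNN2, a calcium-activated SK channel, was the 1 gene of this list called at 20 days (2.56% of 39, beside 2.11% of all genes): females stood at 20.6, 20.6, 17.3, 20.7 and 17.9 CPM and males at 30.3, 26.5, 32.9, 28.4 and 32.1 CPM (1.55-fold, adjusted p 0.00209). All these females were sequenced deeply and all these males shallowly, so sex and depth cannot be told apart in the 20-day call. At 50 days KCNN2 was 1.56-fold higher in males (42.7 ± 2.86 against 27.3 ± 4.60 CPM, adjusted p 8.45e-05). Its log2 difference at 50 days was 0.63 in the shallow libraries alone, against 0.64 in all. In the deep libraries alone, which hold 1 female library of that age, it was 0.55 and not called. KCNK1 was not called there either (log2 0.79, against 0.91 in all libraries).

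Of the genes of this list lower in males, KCNJ4, KCNJ6 and KCNK10 had the smallest p. KCNJ4, an inward rectifier, stood at 12, 13.2, 11.2, 7.91 and 10.6 CPM in males at 50 days and 21.5, 24.3, 27.7, 32.8, 31, 25.5 and 22.8 CPM in females (2.42-fold lower, adjusted p 1.19e-06). KCNJ6, a subunit of G protein-gated channels, stood at 44.5, 48.9, 46.6, 53.0 and 46.2 CPM in males and 72.9, 79.3, 77.6, 80.5, 75.6, 84.6 and 55.8 CPM in females (1.57-fold lower, adjusted p 3.2e-06). KCNK10, a leak channel, stood at 11.9, 16.8, 9.08, 16.4 and 14.9 CPM in males and 33.6, 24.3, 32.9, 29.5, 39.8, 39.7 and 27.4 CPM in females (2.35-fold lower, adjusted p 8.77e-06). None of these genes overlapped between the sexes at 50 days, where 7.67% of all genes were so separated in that direction. Like KCNJ10, KCNK1 and KCNN2 they were picked by their p in this same comparison. Their lack of overlap is therefore not separate evidence.

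The HCN channels, which open on hyperpolarization and carry a depolarizing current, were chosen for description after their values were seen. HCN4 stood at 0.758, 0.056, 0.752, 0.554 and 0.250 CPM in males at 50 days and 1.91, 1.48, 3.72, 1.75, 4.03, 3.77 and 0.836 CPM in females, lower in males without overlap (log2 -2.37, SE 0.50, adjusted p 0.000754). HCN4 also fell with age in males (log2 -2.28, SE 0.52, adjusted p 0.00207) and had a log2 change of 0.04 (SE 0.45) in females, with an interaction of -2.32 (SE 0.68, adjusted p 0.0286). HCN3 was lower in males at 50 days as well (6.93 ± 1.68 against 13.1 ± 4.89 CPM, adjusted p 0.00569). HCN2 stood at 21.9 ± 6.19 CPM in males and 21.4 ± 6.39 CPM in females (log2 0.03, SE 0.20, adjusted p 0.914). In the shallow libraries alone HCN3 (log2 -0.73, adjusted p 0.254) and HCN4 (log2 -2.46, adjusted p 0.0703) were not called at 50 days. Both were called with depth as a model term (adjusted p 0.0459 and 0.00127). HCN4 rested on 107 counts over the 5 male libraries at 50 days.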

How the data were processed

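RNA of laser-captured RA was sequenced in 22 libraries. The deposited values are raw counts per gene, as whole numbers without normalisation, 1 column a library. Per the submitters' processing notes, the tools were STAR 2.6.1, an aligner, Trimmomatic 0.36, a read trimmer, and FastQC 0.11.9, a quality check. How reads were counted, on which build and annotation and with what strand setting is not given in the sources used here. Of 21955 entries 169 without a gene ID (0.0344% to 0.0739% of a library's counts) were left out. Symbols came from the bTaeGut7.mat gene table, which matched 16205 IDs holding 96.9% of the counts. Depth was 16.17 M to 65 M counts per library, and depth and the number of birds limit the precision of low genes.

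Groups follow the labels. In R 4.3.3, edgeR 4.0.16 filtered low counts (filterByExpr), scaled by TMM and fitted 1 quasi-likelihood model to the 4 groups, and p was adjusted over 16004 genes (Benjamini-Hochberg, 0.05). The scripts were tested on simulated counts. Nothing in the labels beyond the brain number says that libraries are separate birds, so p-values measure the spread between these libraries. Alternatives were DESeq2 1.42.0, other scaling (RLE), no filter or 1 CPM in 5 libraries, a replicate block, a depth term, each depth set alone, summing female 50-day replicates 5 and 6, fits of only the groups compared, and leaving out each library. Values in every library are given for the members and other channels with the smallest p in each direction (up to 8 lower and 5 higher for sex at 50 days, 3 in each direction for age and 4 for the interaction). The members, the gene lists and this rule were chosen with earlier results of these data known. Some genes of the list of other channels are not reported here.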

Additional observations from a re-analysis of the deposited data

Results flagged for a closer look

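Single libraries stood apart from the rest of their group for 11 of 128 gene and group pairs tested with Dixon's ratio (8.59%, where chance gives about 5%). In females at 50 days they were KCNA2 in replicate 3 (394 CPM, others 167 to 255), KCNAB1 in replicate 7 (116, others 162 to 187), KCNS1 in replicate 1 (87.8, others 11.5 to 43.2) and KCNH4 in replicate 5 (1.75, others 0.0973 to 0.663). In females at 20 days they were KCND3 in replicate 1 (5.98 CPM, others 14.1 to 17.3), KCNG4 in replicate 5 (1.65, others 0.542 to 0.822) and KCNH8 in replicate 3 (4.35, others 0.629 to 1.46). In males at 20 days replicate 5 stood apart for KCNG3 (9.62 CPM, others 3.25 to 3.55) and for KCNMA1 (64.9, others 81.9 to 88.4). In males at 50 days they were KCNG3 in replicate 4 (0.487 CPM, others 3.31 to 4.44) and KCNH8 in replicate 5 (1.75, others 0.297 to 0.591).

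The age change differed between the sexes by the interaction test for KCNA3 (-1.47), KCNAB2 (0.58), KCND2 (-0.79), KCNS1 (1.99), KCNIP1 (-0.84), KCNIP2 (-1.49), KCNH4 (2.43) and KCNH7 (-1.42), each as log2 of the male change minus the female one. These calls were lost with depth set as a term.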

How the results depend on the processing

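At 20 days 0 members were called in every alternative run. No depth set holds both sexes at that age, so no fit of a depth set alone could be made. The depth term rests on the 50-day libraries, so these runs cannot separate sex from depth at 20 days. At 50 days the count of 19 was 16 to 19 under DESeq2, RLE scaling, either filter, the replicate block, the depth term, the summed pair and the fit of the groups alone, 17 to 19 without 1 library, 7 with shallow libraries alone and 2 with deep ones. The 18 male age calls were 14 to 20 in those settings, 15 to 20 without 1 library and 11 with shallow libraries alone. The 6 female age calls became 2 with the depth term and 0 with deep libraries alone, and were 5 to 6 without 1 library. The 8 interaction calls became 0 with the depth term, and were 6 to 9 without 1 library. No called difference changed sign in any alternative. Without 1 library, calls were lost for KCNA2 in 6 of 22 male fits (adjusted p up to 0.103), KCNS3 in 6 (0.0825), KCNA4 in 4 (0.0963) and KCNT1 in 3 (0.0589), for KCNMA1 in 5 female fits (0.0894), and for KCNA3 in 14 (0.0852) and KCNH4 in 4 (0.0637) interaction fits. Differences moved by over 1.5 times with a depth set alone or as a term, for example at 50 days KCNF1 (-0.60 shallow, -1.84 deep) and KCNH5 (-0.86 shallow); the cause was not tested. The lone deep female library at 50 days was assumed to vary like the other groups. Replicate numbers did not pair libraries: over 30 same-numbered pairs, deviations correlated at -0.11 to 0.28, with 3 over 0.1 and 6 best with their own number. With the replicate block the calls were 0, 18, 18, 6 and 8 (sex at 20 and 50 days, male age, female age, interaction). At 50 days 17 of those 18 are among the 19 called without the block, and the other is KCND3 (log2 -1.06, adjusted p 0.047). Depth limits genes with few counts, such as KCNG4, KCNH4, KCNH8 and KCNV2.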

Other observations

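Some of the channel genes lie next to each other in the gene order of the bTaeGut7.mat table. KCNA2 and KCNA3 are adjacent, and in males KCNA2 rose with age (log2 0.53, SE 0.18, adjusted p 0.0337) while KCNA3 fell (log2 -1.28, SE 0.34, adjusted p 0.00763). Between the sexes at 50 days KCNA3 was lower in males (log2 -1.36) and KCNA2 was not called (log2 -0.31, SE 0.17). KCNA5 and KCNA1 have 1 protein-coding gene between them, and both were lower in males at 50 days (log2 -1.10 and -0.49). In the male age change KCNA5 fell (log2 -1.13) and KCNA1 was not called (log2 -0.16, SE 0.16). The difference between neighbours was not tested.

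KCNH8, an ELK channel, had the largest fitted male age change of the members not called (log2 -1.87, SE 0.70, adjusted p 0.0517), at 2.54 ± 1.80 CPM in males at 20 days and 0.682 ± 0.608 CPM at 50 days. It was called by DESeq2 (adjusted p 0.0275), with female 50-day replicates 5 and 6 summed (0.049) and in 7 of 22 fits without 1 library. Over those 22 fits the log2 change ran from -2.61 (adjusted p 0.0129, without male 50-day replicate 5) to -1.45 (0.152, without male 20-day replicate 5).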
